A study of Mus musculus with 4 samples.

Results

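The galanin family of peptides and receptors comprises 5 genes here: Gal and Galp, which encode the ligands, and Galr1, Galr2 and Galr3, which encode the receptors. They were taken by symbol from the deposited hypothalamus arrays, keeping probe sets annotated with exactly 1 gene symbol. All 5 were found among 19938 genes, each with a single probe set. The arrays are the pilot of a study of C26, a mouse colon adenocarcinoma line that causes cachexia, the wasting that accompanies some tumours. All mice were male CDF1, a cross of BALB/c with DBA/2, aged 10 to 11 weeks, and hypothalami were taken on day 20 after a subcutaneous injection of 0.2 ml of Hanks' balanced salt solution. For the control array, RNA was pooled from 4 animals that received this solution without cells as a sham injection. The 0.5M array held pooled RNA of 4 mice given 500000 C26 cells, the 1M array that of 3 mice given 1000000 cells, and the 2M array RNA of 1 mouse given 2000000 cells, although the title of the last sample calls it pooled. No group had a replicate array, so a difference at 1 cell number is between single arrays and has no replicate check.

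Galanin is a neuropeptide cut from the precursor encoded by Gal and is released by neurons of several hypothalamic nuclei. Injected into the hypothalamus it stimulates feeding, with a preference for fat in some settings, and it also acts on reproductive, neuroendocrine and sleep circuits. Its receptors are G protein-coupled. Galr1 and Galr3 couple mainly to inhibitory G proteins that lower cyclic AMP and open potassium channels, and Galr2 also couples to Gq and phospholipase C. Galp encodes galanin-like peptide, which is made in the arcuate nucleus and responds to leptin.

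The 4 arrays had medians of 6.72 to 6.77 log2 and correlated pairwise at 0.984 to 0.994 across probe sets. All 10 measured hypothalamus markers had means above the expression filter of 6.59 log2, which 11963 of 19938 genes passed. All 4 measured striatum markers and all 4 thalamus markers passed as well, and 3 of 8 anterior pituitary markers. Passing the filter therefore does not check the tissue label. The melanin-concentrating hormone gene Pmch stood at 11.4 to 11.8 log2. Agrp was not measured. The 0.5M array stood apart in 2 of 8 markers of the anterior pituitary, a neighbouring tissue: Prl, the prolactin gene, and the growth hormone gene Gh, the latter at 10.8 log2 against 6.13 in the control, 6.91 at 1M and 6.85 at 2M.

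Gal, the galanin precursor gene, lay well above the filter and was higher than control at every cell number, without passing a test. Its level was 9.82 log2 in the control array, 10.14 at 0.5M, 9.92 at 1M and 10.17 at 2M. The 0.5M and 2M arrays were the high ones, and the 1M array lay close to the control. The differences from control were 0.31, 0.10 and 0.34 log2 at 0.5M, 1M and 2M, which are 1.24-fold, 1.07-fold and 1.27-fold. The 1M difference depended on the scaling and was 0.02 log2 after centring each array on its median. Over the 3 tumour-bearing arrays the mean difference was 0.25 ± 0.14 log2 (SD, n = 3 arrays), or 1.19-fold. In limma, tumour-bearing against control, the difference had a standard error of 0.12, a 95% interval of -0.05 to 0.55 log2 and a Benjamini-Hochberg adjusted p of 0.497 over 11963 genes. This test takes the single control array to be as variable as the rest, and its spread is that between cell numbers and pool sizes. In bulk tissue, more cells of a type and more RNA per cell cannot be told apart.

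The order of Gal levels was control, 1M, 0.5M, 2M, so it did not follow the number of cells injected. The slope was 0.13 log2 per 1000000 cells (95% interval -0.06 to 0.31, limma adjusted p = 0.809). Between tumour-bearing arrays, 2M exceeded 0.5M by 0.03 log2 and 1M by 0.25 log2. The first of these is smaller than the SD of the differences from control over all genes, which was 0.19 at 0.5M and 0.22 at 2M. The second is larger than these and than the SD of 0.24 at 1M. No SD was computed for differences between tumour-bearing arrays. With no replicate arrays, neighbours in the order could not be set against a spread of their own.

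The sequence around the transcription start of Gal is given because cyclic AMP and cytokine signals are known to regulate galanin transcription, and genes of both are described further on. The RefSeq promoter table of build GRCm38.p6 places it on the minus strand at chr19:3414515-3414794, a window of 250 bases before and 30 bases after the transcription start. Capitals mark the single match to the CRE half-site TGACG, the core bound by CREB-family factors, on either strand. The match lies after the start, within the last 30 bases.

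Gal: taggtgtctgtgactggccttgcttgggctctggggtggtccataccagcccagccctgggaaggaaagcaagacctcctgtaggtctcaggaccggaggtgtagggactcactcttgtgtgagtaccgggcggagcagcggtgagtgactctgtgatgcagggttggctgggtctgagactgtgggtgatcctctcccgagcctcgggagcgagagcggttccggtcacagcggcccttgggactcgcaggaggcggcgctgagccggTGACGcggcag

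The window had a GC content of 64.3%, against a median of 52.5% over 32851 promoters of the same length. A TGACG match was present in 19.9% of those promoters. The window held no match to the AP-1 site TGANTCA (7.46% of promoters), the STAT site TTCNNNGAA (7.83%) or the TATA motif TATAAA (13.1%), each searched on both strands. The data hold no measurement of factor binding, so these are matches of letters only. Of the 5 genes, 3 had an entry in the promoter table: Gal, Galp and Galr2, the last with 1 STAT match.

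Galp, the second ligand gene, was below the filter and was not tested. It stood at 5.98 log2 in the control, 5.91 at 0.5M, 6.26 at 1M and 6.14 at 2M. It was lower than control at 0.5M and higher in the other tumour-bearing arrays. The differences were -0.07, 0.28 and 0.16 log2, with a mean of 0.12 ± 0.18 (SD, n = 3), or 1.09-fold. The SD exceeded the mean.

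Galr1, the gene of an inhibitory receptor, stood at 7.56 log2 in the control, 7.72 at 0.5M, 7.60 at 1M and 7.60 at 2M. Only the 0.5M array stood away from the others. The differences were 0.16, 0.04 and 0.04 log2 and averaged 0.08 ± 0.07 log2 (SD, n = 3; limma adjusted p = 0.786). Galr2, the Gq-coupled receptor gene, lay below the filter and was nearly constant at 5.60, 5.64, 5.65 and 5.60 log2 in the same order of arrays, a range of 0.05 log2. Its mean difference was 0.03 ± 0.02 log2 (SD, n = 3), and it was not tested.

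Galr3, the other receptor gene past the filter, stood at 7.02 log2 in the control, 7.06 at 0.5M, 7.42 at 1M and 7.23 at 2M. The 1M and 2M arrays were high, and the 0.5M array was close to control. Differences of 0.04, 0.39 and 0.20 log2 corresponded to 1.03-fold, 1.31-fold and 1.15-fold. The mean was 0.21 ± 0.18 log2 (SD, n = 3), with a 95% interval of -0.14 to 0.56 and an adjusted p of 0.61 in limma. Galr3 also had the widest range over the 4 arrays among the 5 genes, 0.39 log2, ahead of Galp at 0.35, Gal at 0.34, Galr1 at 0.16 and Galr2 at 0.05.

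**Figure D1:**
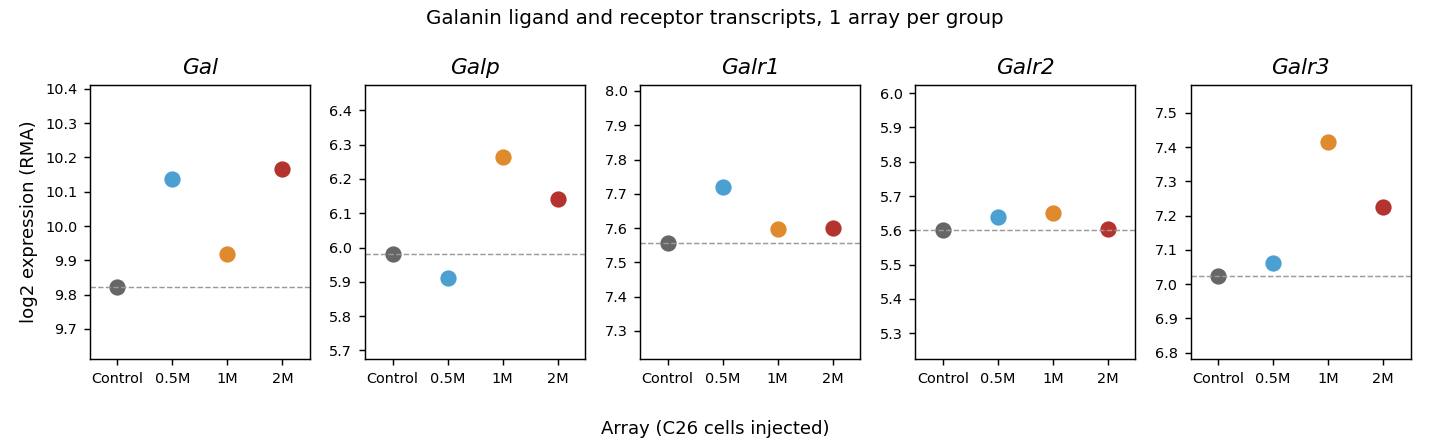
Deposited log2 values of Gal, Galp, Galr1, Galr2 and Galr3 (vertical axis) in the 4 arrays (horizontal axis), 1 point per array and no error bar because no group had a replicate. Gal is highest at 0.5M and 2M, at 10.14 and 10.17 log2, and Galr3 at 1M, at 7.42 log2.

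Gal and Galr3 differed in which arrays were high, though no test of that difference was possible with single arrays. From 0.5M to 1M Gal was lower by 0.22 log2 and Galr3 higher by 0.35. Levels of different probe sets were not compared, since each has its own affinity.

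Of the 5 genes, 4 (Gal, Galr1, Galr2 and Galr3) exceeded the control in every tumour-bearing array, as did 33.2% of all genes. None of the 5 was lower in all 3, where 22.5% of genes were. The differences from control over all genes had medians of -0.01, 0.07 and 0.03 log2 at 0.5M, 1M and 2M. After centring each array on its median, or after cyclic loess, only Gal and Galr3 remained higher in all 3. So did 27.1% and 29% of all genes. Galr1 then reached -0.03 log2 at 1M, and Galr2 -0.10 at 1M and -0.08 at 2M. The median over the 5 genes was 0.04 log2 at 0.5M, 0.10 at 1M and 0.16 at 2M. All 3 comparisons share the control array.

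By size, 0 of the 5 genes reached a distance of 0.5 log2 from control, a 1.41-fold difference, at any cell number. That distance was reached by 1.39% of all genes at 0.5M, 4.8% at 1M and 3% at 2M. In all 3 arrays together it was reached upward by 0.276% of genes and downward by 0.12%. In limma, of the 3 genes past the filter, 0 passed for tumour-bearing against control and 0 for the trend, and 0 had an unadjusted p under 0.05 in either. Over all genes tested, 0.0502% passed upward and 0% downward in the first test, with 1292 at an unadjusted p under 0.05, and 0% passed in the trend, with 780. Without the filter Galp and Galr2 could be tested as well, and limma gave adjusted p-values of 0.871 and 0.96 for tumour-bearing against control.

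Genes of similar level give a spread to set these differences beside. It is a spread between genes and not between replicate arrays, so the percentiles below are ranks and not tests. Among the 1665 genes within 0.5 log2 of the mean level of Gal, the central 95% of differences ran from -0.29 to 0.31 log2 at 0.5M, from -0.51 to 0.39 at 1M and from -0.40 to 0.35 at 2M. Gal stood at percentiles 97.7, 70 and 97.2 of these genes. It was thus just above the range at 0.5M, just inside it at 2M and well inside it at 1M. For its mean over arrays the percentile was 94.3. Galr3 lay inside the range in every array, at percentile 60.2 at 0.5M, 92.2 at 1M and 82.2 at 2M. The mean differences of Galp, Galr1 and Galr2 stood at percentiles 62.5, 65.6 and 39.9.

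**Figure D2:**
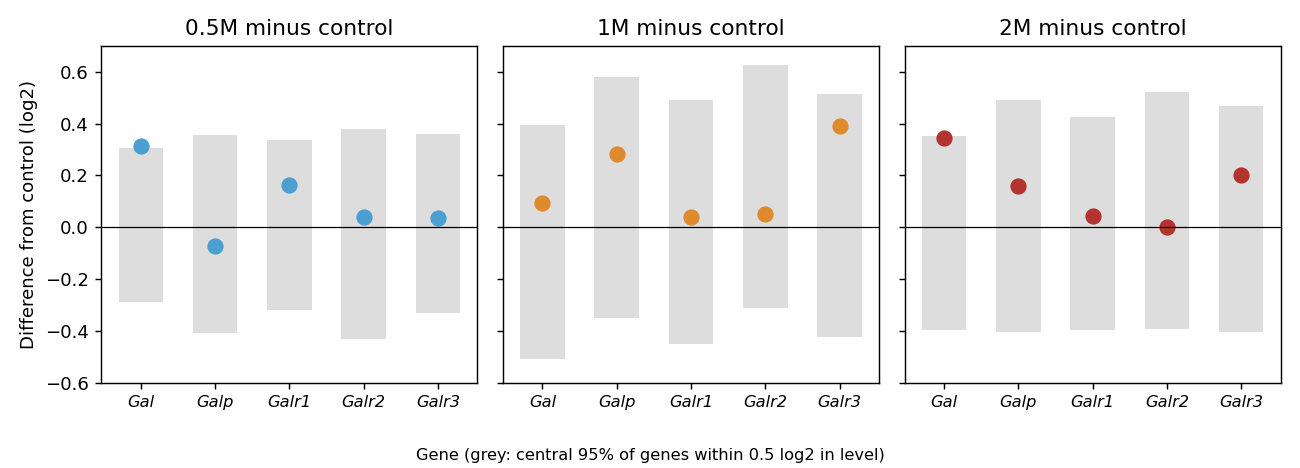
Differences from control in log2 units (vertical axis) of the 5 galanin genes in the 0.5M, 1M and 2M arrays (horizontal axis), with bars spanning the central 95% of differences among genes within 0.5 log2 of each gene's mean level. Gal lies just above its bar at 0.5M, at 0.31 log2, and just inside its upper end at 2M, at 0.34 log2. Galr3 at 1M, at 0.39 log2, lies inside its bar.

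The genes whose 3 differences were closest to those of Gal, by Euclidean distance over 11960 genes past the filter, were A230051N06Rik, Nhs, Kalrn, Trabd2b and Cflar, at distances of 0.03 to 0.06 log2. Cflar encodes an inhibitor of cell death signalling. In all, 29 genes lay within 0.1 log2 of Gal. For Galr3 the nearest genes were Ranbp3, Vps37d and Zfp469, with 141 genes within 0.1. The corresponding counts were 149 for Galp, led by Mfsd5, Inava and Pbld2, 463 for Galr1, led by Cwc22, Blzf1 and Osbpl3, and 1326 for Galr2, led by Dchs1, Tafa5 and Gldc. Patterns closer to 0 have more neighbours, and likeness was measured over 3 differences with 1 control array in common.

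The related ligand and receptor genes went in mixed directions. Spx encodes spexin, which activates Galr2 and Galr3, and was -0.28, -0.07 and 0.11 log2 from control. Kiss1, the kisspeptin gene of the same receptor branch, was -0.34, 0.09 and -0.02 log2 from control. Gpr151, an orphan receptor related to the galanin receptors, was 0.09, -0.08 and 0.26. With Kiss1r, the kisspeptin receptor gene and the single one past the filter, the list had 4 genes and a median of -0.04 log2. None of them kept 1 direction over the 3 arrays, where 33.2% of all genes were always above control and 22.5% always below.

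Genes that process neuropeptide precursors and build secretory granules stayed near control, with a median of 0.01 log2 over 11 measured genes. This and the list medians that follow are of the genes' mean differences over the 3 arrays, which had a median of 0.12 log2 for the 5 galanin genes and 0.03 for all genes. The galanin median was 0.0552 log2 with cyclic loess and 0.22 without the 0.5M array. Of the 11 processing and granule genes, 1 was always higher over the 3 arrays and 1 always lower, against 33.2% and 22.5% of all genes. Of these 11, 0 passed limma or reached an unadjusted p under 0.05. Of the 11963 genes tested, 1292 reached that p for tumour-bearing against control and 780 for the trend. The same all-gene figures apply to the lists that follow. Pcsk1, the convertase that cuts many prohormones, was -0.15, -0.30 and -0.20 log2 from control (limma adjusted p = 0.48). Chgb, a granin of the secretory granule, was 0.28, 0.23 and 0.01 log2 higher.

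Downstream of the receptors, 22 genes of G proteins, adenylyl cyclases, potassium channels, phospholipase C and protein kinase C had a median of -0.02 log2. Across the 3 arrays 6 were always above control and 8 always below, against 33.2% and 22.5% of all genes. Of the 21 in this list past the filter, 0 passed limma. Gnai3, an inhibitory G protein alpha subunit, stood at 8.19 log2 in the control, 7.83 at 0.5M, 7.73 at 1M and 7.56 at 2M. Every tumour-bearing array lay below the control, with differences of -0.36, -0.46 and -0.62 log2 (limma adjusted p = 0.375). Adcy8, a calcium-stimulated adenylyl cyclase, differed by -0.31, -0.40 and -0.48 log2 (limma adjusted p = 0.375). Both had an unadjusted p under 0.05, as 1292 genes did.

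**Figure D3:**
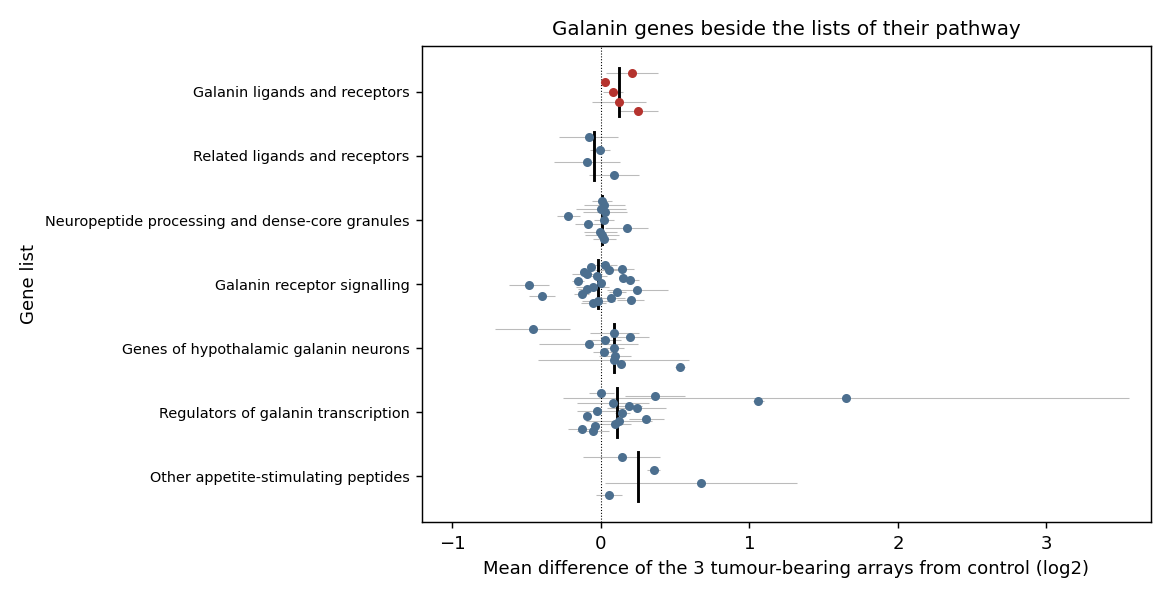
Mean difference of the 3 tumour-bearing arrays from control (log2, horizontal axis) for each gene of 7 lists (vertical axis), with grey lines for the SD over these arrays and black bars for list medians. The galanin ligands and receptors, in red, have a median of 0.12 log2, the receptor signalling list -0.02 and the other appetite-stimulating peptides 0.25, and the far right point is Prl at 1.65 log2.

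Genes expressed in hypothalamic galanin neurons had a median of 0.09 log2 over 11 genes. Of these 11, 4 were always above control and 1 always below, against 33.2% and 22.5% of all genes. Of the 10 past the filter, 0 passed limma and 2 had an unadjusted p under 0.05. Avp, the vasopressin gene, stood at 9.92 log2 in the control, 10.42 at 0.5M, 10.48 at 1M and 10.47 at 2M, a mean difference of 0.53 ± 0.03 log2 (SD, n = 3, limma adjusted p = 0.313). Th, tyrosine hydroxylase, differed by -0.21, -0.71 and -0.45 log2, and the neurotensin gene Nts by 0.32, 0.07 and 0.20.

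Regulators of galanin transcription (16 measured) had a median of 0.11 log2. Of the 16, 7 were always above control and 3 always below, against 33.2% and 22.5% of all genes. Among the 11 regulators past the filter, 1 passed limma. Osmr, the oncostatin M receptor subunit, rose: it was 1.02, 1.07 and 1.09 log2 above control (mean 1.06 ± 0.04, SD, n = 3), with a limma adjusted p of 0.0327. Its call was lost without the 0.5M, 1M or 2M array (adjusted p = 0.0513, 0.103 and 0.0581 in limma) and without the filter (adjusted p = 0.147). Socs3, a feedback inhibitor of STAT3 signalling, differed by 0.15, 0.55 and 0.40 log2 and did not pass (limma adjusted p = 0.466). The other appetite-stimulating peptides were 4 measured genes. Of these, Npy and Pmch were above control in every tumour-bearing array, as were 33.2% of all genes. In limma on all 4 arrays, none of the 4 peptides passed. An unadjusted p under 0.05 was reached by 1 for tumour-bearing against control and by 2 in the trend. Npy was highest at 2M, at 1.41 log2 above control. Its slope was 0.67 log2 per 1000000 cells (limma adjusted p = 0.38). The slope was 0.71 without the 0.5M array, 0.70 without 1M and 0.75 without the control. Without the 2M array, which held RNA of 1 mouse, it was 0.20. Whether Npy passed in the trend depended on which array was left out, and no call is drawn from those runs. Qrfp differed by -0.16, 0.26 and 0.32 log2, and Pmch was 0.40, 0.31 and 0.36 log2 above control.

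Markers of the tissue and of its neighbours also differed between the arrays. Of 10 hypothalamus markers, 6 were always above control and 1, Pomc, always below, against 33.2% and 22.5% of all genes. Their summed level was 13.1 log2 in the control, 13.4 at 0.5M, 13.4 at 1M and 13.3 at 2M. Oxytocin (Oxt) differed by 0.79, 0.81 and 0.62 log2. None of these markers passed limma. An unadjusted p under 0.05 was reached by 5 for tumour-bearing against control and by 2 in the trend. Of the 11963 genes tested, 1292 and 780 did so. Their part in the Gal difference was not tested.

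The anterior pituitary also expresses galanin. Its markers had a summed level of 9.70 log2 in the control, 11.4 at 0.5M, 9.90 at 1M and 9.63 at 2M. Of 8 markers measured, 6 were always above control and 2, Cga and Tbx19, always below, against 33.2% and 22.5% of all genes. Of the 8, 3 lay past the filter. Gh was 4.68, 0.78 and 0.72 log2 above control and the prolactin gene Prl 3.85, 0.55 and 0.56. Cga differed by -0.05, -0.01 and -0.50 log2 and Tbx19 by -0.20, -0.02 and -0.72, and the list median was 0.25, 0.35 and 0.20 log2. The part of pituitary RNA in the 0.5M value of Gal was not tested. Avp is in both the galanin-neuron and hypothalamus lists, and Prl is in both the regulator and pituitary lists.

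Galanin is also found in serotonergic and noradrenergic neurons of the brain stem. The serotonergic markers were below control, with Tph2 at -0.85, -1.16 and -1.03 log2 and Slc6a4 at -0.30, -0.28 and -0.43, both below the filter, and their summed level was 7.24 log2 in the control and 6.68, 6.57 and 6.53 in the others. The noradrenergic markers, also all below the filter, had 1 gene always above and 1 always below control, and a summed level of 6.99, 6.87, 7.07 and 6.90 log2. The habenula markers had a summed level between 9.12 and 9.18 log2. The part of these cells in the galanin values was not tested.

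**Figure D4:**
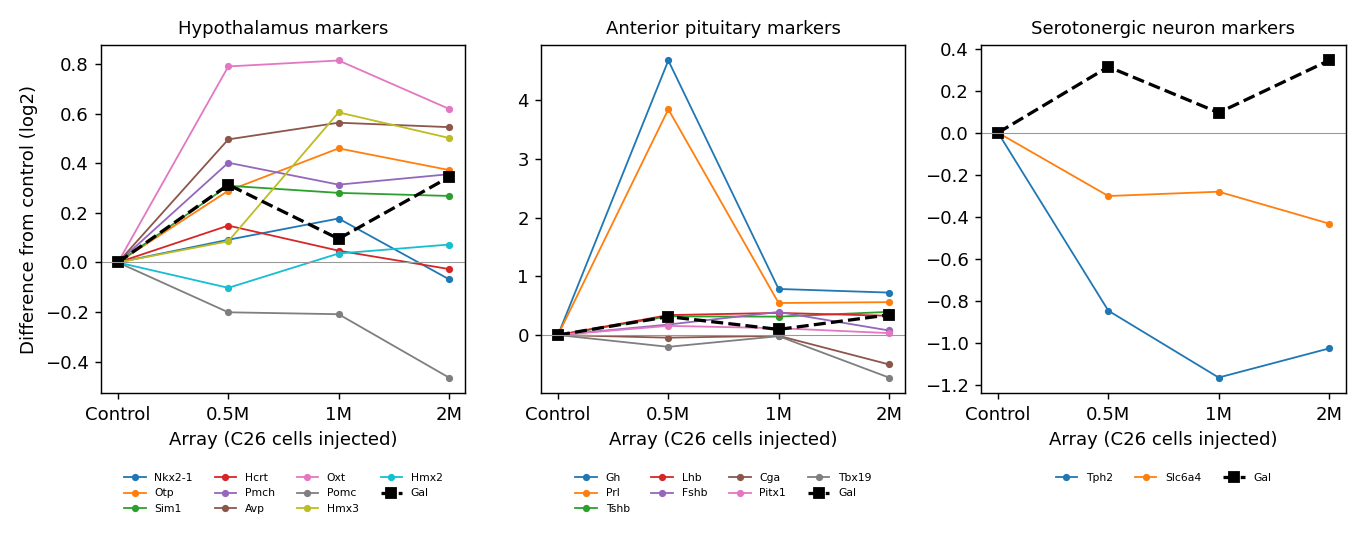
Differences from control (log2, vertical axis) of hypothalamus, anterior pituitary and serotonergic neuron markers in the 4 arrays (horizontal axis), with Gal as a dashed line. Gh and Prl stand at 4.68 and 3.85 log2 at 0.5M, Tph2 is lower in all 3 tumour-bearing arrays, and Gal stays within 0.34 log2 of control.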

How the data were processed

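The deposited table gives log2 expression for each probe set on each array. The submitters' processing notes name RMA as the tool, with its version, its software and the genome build not given in the sources used here. Quantile alignment in RMA removes changes common to all transcripts. The table held 35556 probe sets, of which 21789 had 1 symbol, 1621 had several and 12146 were unnamed here. A gene with several probe sets was represented by the one with the highest mean. All 5 members matched RefSeq by Entrez number. Tests covered the 11963 genes with a mean at or above the 40th percentile (6.59 log2), including Gal, Galr1 and Galr3 but not Galp or Galr2.

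Two-sided tests used limma 3.58.1 in R 4.3.3 (lmFit, eBayes, Benjamini-Hochberg adjustment, threshold 0.05) for tumour-bearing against control and for a linear trend with cell number, each with 2 residual degrees of freedom. In the trend, the 2M animal carries the most weight. Differences of single arrays were counted with no p-value. The other values came from Python 3.11.15 with pandas 2.3.3 and numpy 2.4.6, and plots from matplotlib 3.10.9. Members and gene lists were chosen with earlier results of these data known. Named genes were the 5 members, up to 3 per list by mean difference, list members at least 0.5 log2 from control in all 3 arrays, the nearest genes by Euclidean distance, and the pituitary, serotonergic, noradrenergic and habenula markers. Kiss1r and Pomc fall outside this rule and were named after their values were seen. The test of tumour-bearing against control was run on simulated data with shifts larger than the Gal difference. The simulation gave the control array the same spread as the others, so it does not check that assumption. Alternatives were the filter, probe set averaging, cyclic loess, median centring, eBayes with a trend, ranks of cell number, other size limits and leaving out each array.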

Additional observations from a re-analysis of the deposited data

How the results depend on the processing

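The 3 tested genes did not pass limma under any alternative run. For tumour-bearing against control, the Gal difference ran from 0.20 to 0.33 log2 (adjusted p 0.318 to 0.868), that of Galr1 from 0.04 to 0.10 (0.665 to 0.948) and that of Galr3 from 0.12 to 0.30 (0.368 to 0.885). The Gal slope ran from 0.05 to 0.17 log2 per 1000000 cells and that of Galr3 from 0.07 to 0.39. The Galr1 slope, -0.003 log2, turned to 0.0007 with ranks of cell number and ran from -0.0687 to 0.0411 when single arrays were left out, at 0.0218 without 0.5M and 0.0411 without 2M. The 6 genes that passed for tumour-bearing against control became 1 without the filter, 2 with the 60th percentile filter and 3 to 6 when single arrays were left out, 3 without 1M. The trend count of 0 became 0 to 58 when single arrays were left out, with 38 without 0.5M, 58 without 1M and 3 without the control. Counts of genes past 0.5 log2 (277 at 0.5M, 958 at 1M, 599 at 2M) became 47, 276 and 166 with the 60th percentile filter and 102, 451 and 297 with the 40th, the latter chosen after seeing the data. A limit of 0.3 log2 gave 1784, 4225 and 2943, and a limit of 1 log2 gave 12, 30 and 30. Of the list medians, 117 moved by less than the spread over tumour-bearing arrays and 21 by more, some under the 40th percentile filter, which was chosen after seeing the data here too. Of the single-array differences of the 5 genes, 39 moved by less than that spread and 6 by more, all of Galr1 or Galr2. The 39 include the runs that averaged probe sets, which could not move because each of the 5 genes had a single probe set. Each group was 1 array, so the number of arrays limits the precision, and no paired analysis was possible because no group had a second array. No probe set named a member with another symbol, and the tumour comparison has no form without the control array.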

Other observations

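Markers of further neighbouring tissues were measured beside the galanin genes. Gpr50, an orphan receptor gene of tanycytes, differed from control by -0.42 log2 at 0.5M, -0.53 at 1M and -0.76 at 2M and did not pass limma (adjusted p = 0.375). Dio2, the deiodinase gene of the same cells, differed by 0.44, 0.40 and 0.24 log2 and did not pass either (limma adjusted p = 0.375), and Fndc3c1 differed by -0.18, -0.45 and -0.34. The 6 tanycyte markers had a median of -0.03 log2, with 1 always above control and 2 always below, against 33.2% and 22.5% of all genes. Ppp1r1b, the DARPP-32 gene of striatal neurons, differed by 0.87, 0.25 and 0.34 log2, and the summed striatum markers stood at 10.6, 11.0, 10.7 and 10.7 log2 from control to 2M. Median differences were -0.01 log2 for thalamus, 0.06 for cortex and 0.02 for choroid plexus markers. Alas2, the 1 red blood cell marker measured of 7, differed by 0.94, 0.83 and 0.79 log2 (limma adjusted p = 0.119).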
